A study of Mus musculus with 6 samples.

Results

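The mouse genes named Zfp followed by a number alone were examined in RNA from hematopoietic stem cells (HSC), the rare bone marrow cells that renew the blood. The 267 genes described here are those of this name with a mean level of at least 5 CPM (counts scaled to a library total of 1000000) over 6 libraries. They come from 333 genes of the name among 24062 listed genes. Of the other genes of the name, 14 had no read and 52 had reads but stayed under that level. Zfp genes encode zinc finger proteins, in most of which each finger is a short fold held by a zinc ion that reads a few bases of DNA. The majority of the proteins in this set also carry a KRAB box, a short domain that binds the corepressor TRIM28 and through it brings silencing histone marks to the bound DNA. Such KRAB zinc finger genes lie in clusters of recent duplicates, and many bind the remains of mobile elements. Others of the name have no KRAB box and act in RNA decay, ribosome assembly, mitosis or gene control.

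There were 3 CDKO libraries and 3 control libraries, each from a pool of 3 to 5 mice. CDKO mice carried Nr4a1 fl/fl, Nr4a3-/- and Rosa26-ERt2 alleles, and control mice carried Nr4a1 fl/fl and Nr4a3-/- alleles without Rosa26-ERt2. Both groups thus lacked Nr4a3, and no group with an intact Nr4a3 was compared. Both received tamoxifen at 120 mg per kg on 4 consecutive days, which activates a Cre recombinase of the ERt2 type and deletes floxed sequence, and HSC were sorted on day 5. The comparison asks what differs in HSC after acute loss of Nr4a1, an orphan nuclear receptor, where Nr4a3 is already missing. The Cre construct and the deletion came together, so they cannot be told apart, and the same holds for any batch shared within a group. The labels give no age, strain or sort markers.

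Nr4a1 was measured at 8.52, 9.76 and 9.12 CPM in CDKO pools and at 15.2, 13.4 and 12.9 CPM in control pools (log2 difference -0.55, limma adjusted p = 0.00204). The groups did not overlap, and the CDKO mean was 0.661 of the control mean, so the gene was not lost from the counts. The deposited counts sum all exons of a gene, deleted or kept. Nr4a3 had 0 reads in every library, in CDKO and control pools alike. CDKO libraries held 32863805, 41475747 and 42772261 counted reads, and control libraries held 39111308, 36464747 and 42348692. Log2 values of libraries correlated at 0.993 or more within groups and at 0.955 or less between them. All values were counts from bulk RNA, in which fewer cells of a type and less RNA per cell cannot be told apart. The p-values measure the spread between pools, and the labels do not say whether the pools were handled separately.

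Numbered Zfp genes moved in both directions, and more of them fell than rose. In CDKO pools 71 of the 267 genes were higher and 102 were lower, while 94 did not pass the test (limma on log2(CPM + 1), Benjamini-Hochberg adjusted p under 0.05 over 13732 genes). That is 64.8% of the set, against 66.2% of all genes tested and 65.7% of the 10540 other genes tested at the same minimum level. The share of the set that changed was therefore near the background and is not a property of the set. By direction, 26.6% of the set was higher and 38.2% lower, against 31.1% and 35.2% of all genes tested and 32% and 33.8% of the other genes at that level. The median log2 difference was -0.10 for the set, -0.0049 for the other genes at that level and -0.02 for all genes tested. Values of the groups did not overlap for 188 genes or 70.4% of the set, with CDKO pools above in 77 and below in 111. The same was true of 70.7% of all genes tested and 70.5% of the other genes at that level. CDKO pools were above in 28.8% and below in 41.6% of the set, in 33.4% and 37.2% of all genes tested, and in 34.6% and 35.9% of the other genes at that level.

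Summed over the 267 genes, the level was 10672, 10780 and 10745 CPM in CDKO pools and 11117, 11525 and 11509 CPM in control pools. All 3 CDKO sums lay below all 3 control sums. The CDKO mean was 1.06-fold lower. Another scaling moved the split of calls, to 83 higher and 95 lower where quantile normalization was used. With values adjusted for GC and length of the transcript it was 84 higher and 95 lower.

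The level rule uses all 6 libraries, so a gene can enter through 1 group. For 247 genes the mean was at least 5 CPM in each group, and of these 62 were higher and 92 lower. These are 25.1% and 37.2%, against 31.9% and 32.6% of the 10090 other genes at 5 CPM or more in each group. The other 20 numbered Zfp genes reached 5 CPM in 1 group alone and had to differ, so they are no support for any direction. Just above the rule stood Zfp108, at 6.88, 4.77 and 6.59 CPM in CDKO pools and 4.53, 4.03 and 5.05 CPM in control pools, and Zfp442, at 2.98, 3.09 and 2.17 CPM in CDKO pools and 8.97, 8.23 and 7.44 CPM in control pools. Just below it stood Zfp184, at 4.44, 7.31 and 5.89 CPM in CDKO pools and 1.51, 4.83 and 5.41 CPM in control pools, and Zfp948, at 0.213, 1.23 and 1.66 CPM in CDKO pools and 8.77, 7.90 and 9.42 CPM in control pools.

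**Figure D1:**
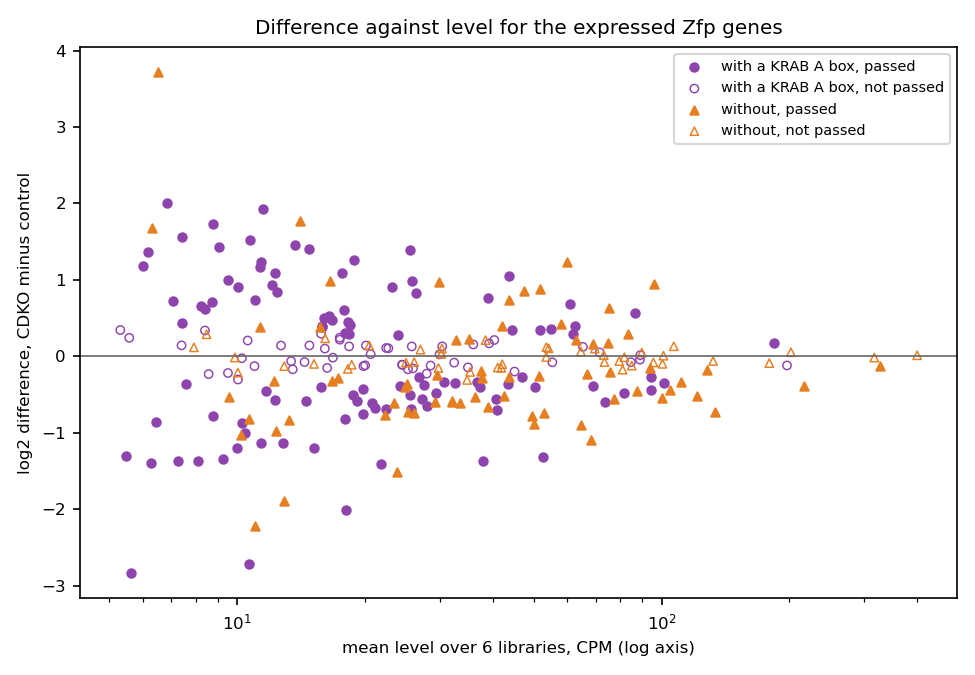
Each point is 1 of 266 numbered Zfp genes with a coding transcript, placed by its mean level over 6 libraries in CPM (log axis) and its log2 difference, CDKO minus control; filled symbols passed the limma test and open symbols did not, circles have a KRAB A box and triangles do not. Differences spread from -2.84 to 3.72 at low levels and narrow toward 0 above 100 CPM.

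Markers of other blood cells differed between the same pools. Summed over 12 neutrophil markers the level was 242 to 409 CPM in CDKO pools and 1143 to 1410 CPM in control pools, and 10 of the 12 were lower. For 6 mast cell and basophil markers the sum was 3.62 to 7.86 CPM in CDKO pools and 200 to 259 CPM in control pools, and Cma1 had no read. For 8 erythroid markers it was 43.1 to 49.1 CPM in CDKO pools and 202 to 224 CPM in control pools. For 6 B cell markers it was 1.73 to 2.80 CPM in CDKO pools and 7.57 to 9.56 CPM in control pools, and 2 of them had no read. Other lists held markers that were higher. Of 5 T cell markers Cd3e, Cd3g and Cd8a were at 0 in every library, while Cd4 (2.98, 2.22 and 2.81 CPM in CDKO pools and 0.0256, 0.247 and 0.401 CPM in control pools) and Lck were higher, and the list summed to 29.7 to 30.9 CPM in CDKO pools and 16.6 to 19.8 CPM in control pools. Of 3 macrophage markers 2 were higher and 1 was lower, with a sum of 41.3 to 43.4 CPM in CDKO pools and 26.0 to 29.1 CPM in control pools. Of 6 megakaryocyte markers 4 were higher and 1 was lower, among the higher ones Pf4, at 90.0, 80.7 and 75.3 CPM in CDKO pools and 28.0, 25.9 and 29.4 CPM in control pools. Their sum was 1582 to 1683 CPM in CDKO pools and 1596 to 1706 CPM in control pools. The 10 HSC markers summed to 3933 to 4081 CPM in CDKO pools and 4415 to 4566 CPM in control pools, so all 6 libraries held reads of the labelled cell type's markers. Of these 10 markers 3 were higher, 6 were lower and 1 did not pass, with a median log2 difference of -0.24. The part of these other cells in the Zfp values below was not tested.

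Of the 8 numbered Zfp genes with the most reads, Zfp740 and Zfp207 fell, Zfp445 rose and 5 did not pass. The share that passed was 52.6% of the 19 numbered Zfp genes over 100 CPM. It was 67.9% of other genes at that level and 66.2% of all genes tested, and the difference was not tested. Per kilobase of exon, which lets genes be compared, Zfp706 led with 80.8 CPM per kb in CDKO pools and 79.9 CPM per kb in control pools. Zfp422 and Zfp207 followed, with 48.0 and 47.0 CPM per kb in CDKO pools and 51.0 and 51.4 CPM per kb in control pools. The median of the set was 6.04 CPM per kb over the 6 libraries. Zfp706, a small protein with a single finger, was at 393, 391.5 and 422 CPM in CDKO pools and 383, 397 and 414 CPM in control pools and did not pass (log2 difference 0.01, SE 0.05). The groups overlapped. Zfp207, a microtubule and spindle protein of mitosis also called BuGZ, was at 306, 318 and 313 CPM in CDKO pools and 334, 346 and 347 CPM in control pools. It fell by 0.13 on the log2 scale (SE 0.04, limma adjusted p = 0.0114), and all CDKO values were below all control values.

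Among the 8 genes with the most reads, Zfp740 showed the largest difference. Its level was 170.5, 209 and 185 CPM in CDKO pools and 241, 255 and 240 CPM in control pools (log2 difference -0.38, SE 0.07, limma adjusted p = 0.000313). Zfp106, an RNA-binding protein needed by motor neurons and muscle, was at 307, 316 and 323 CPM in CDKO pools and 301, 320 and 335 CPM in control pools and did not pass. Zfp148, Zfp266 and Zfp422 did not pass either, with log2 differences of 0.06, -0.12 and -0.09. Zfp148 passed with the adjustment for GC and length (log2 difference 0.16, limma adjusted p = 0.0185), and Zfp106 did too, with its sign turned (0.12, limma adjusted p = 0.0345). When CDKO replicate 3 was left out Zfp266 passed as well (-0.19, limma adjusted p = 0.0177).

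The largest rise was that of Zfp365 (mm10 chromosome 10, 67886103 to 67912662), whose human counterpart is linked to genome stability. Its level was 12.7, 13.9 and 12.3 CPM in CDKO pools and 0, 0.192 and 0 CPM in control pools. All 7 control reads came from control replicate 2, and 0 reads in the other control libraries allows up to 0.0767 and 0.0708 CPM (3 counts, counting error only). CDKO libraries held 416, 578 and 527 reads of it, and the log2 difference was 3.72 (SE 0.15, limma adjusted p = 2.69e-08). The pseudocount of 1 CPM bounds that difference, so it understates the change. Zfp365 has none of the C2H2 fingers counted in this set and no KRAB box.

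Zfp759, a KRAB gene with 19 fingers on chromosome 13 (67121660 to 67141787), was next, at 11.3, 12.9 and 10.2 CPM in CDKO pools and 1.02, 2.44 and 3.24 CPM in control pools. It was 5.13-fold higher by the means (log2 difference 2.01, SE 0.24, limma adjusted p = 2.11e-05), and its control values spread more than its CDKO values. Zfp169, another KRAB gene of chromosome 13 (48487647 to 48513451), was at 17.5, 19.6 and 19.2 CPM in CDKO pools and 2.68, 4.91 and 5.38 CPM in control pools, which is 4.33-fold higher (limma adjusted p = 6.34e-06). Zfp623, with 12 fingers and no KRAB box, was at 22.2, 21.3 and 22.4 CPM in CDKO pools and 2.79, 6.77 and 9.21 CPM in control pools. In each of these genes every CDKO value was at least 2 times the highest control value.

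Zfp941, Zfp691, Zfp879, Zfp951, Zfp109, Zfp605, Zfp810 and Zfp324 completed the 12 highest, with log2 differences of 1.40 to 1.74. Of the 12, at least Zfp365, Zfp759, Zfp169, Zfp691 and Zfp941 had control means under 5 CPM. They entered the set through the CDKO pools alone and are among the 20 genes that had to differ. Zfp691 was at 10.4, 10.01 and 9.94 CPM in CDKO pools and 2.12, 3.04 and 2.29 CPM in control pools, and it is a 7-finger gene without a KRAB box. Zfp324, with the most reads of the 12, was at 37.8, 37.5 and 37.2 CPM in CDKO pools and 11.1, 14.8 and 15.3 CPM in control pools. Among these 12 genes 9 had a KRAB box, against 155 of the 266 genes of the set with a coding transcript, and that difference was not tested. Zfp605 overlaps a gene on the other strand and Zfp941 one on its own strand, so their counts may hold reads of those partners.

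The largest falls were those of Zfp92 and Zfp850, both KRAB genes. Zfp92 (chromosome X, 73411096 to 73428385) had 0.0913, 2.00 and 0.257 CPM in CDKO pools and 11.2, 10.3 and 9.78 CPM in control pools. It was 13.3-fold lower by the means (log2 difference -2.84, SE 0.30, limma adjusted p = 1.11e-05), with 3, 83 and 11 reads in the CDKO libraries. Most of its CDKO reads therefore came from replicate 2. Zfp850 (chromosome 7, 27984854 to 28014115) showed the same order, with 0.791, 5.76 and 1.19 CPM in CDKO pools and 16.7, 17.1 and 22.5 CPM in control pools (log2 difference -2.72, SE 0.38, limma adjusted p = 8.28e-05).

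Zfp827, which in human cells brings the NuRD deacetylase complex to telomeres, fell to 2.46, 2.72 and 4.98 CPM in CDKO pools, against 19.1, 18.9 and 18.0 CPM in control pools. That is 5.52-fold lower (log2 difference -2.21, SE 0.19, limma adjusted p = 2.58e-06). Zfp597 was at 3.20, 7.14 and 10.9 CPM in CDKO pools and 34.4, 26.8 and 25.9 CPM in control pools, 4.1-fold lower. It overlaps Zfp174 and Naa60 on the other strand, and its CDKO values spread more than those of Zfp827. Zfp2, with 13 fingers and no KRAB box, was at 3.59, 5.69 and 5.61 CPM in CDKO pools and 20.3, 21.7 and 20.4 CPM in control pools. It lay 57159 bases from Zfp879, which rose by 1.56 on the log2 scale.

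Zfp831, Zfp28, Zfp583, Zfp558, Zfp619, Zfp120 and Zfp7 completed the 12 lowest, with log2 differences of -1.51 to -1.35. Of the 12, at least Zfp92, Zfp850, Zfp827 and Zfp2 had CDKO means under 5 CPM. They entered the set through the control pools alone and are among the 20 genes that had to differ. Zfp120, with the most reads of the 12, was at 19.4, 19.2 and 24.0 CPM in CDKO pools and 57.7, 53.8 and 53.9 CPM in control pools. Zfp831 was at 11.6, 12.8 and 11.3 CPM in CDKO pools and 37.3, 33.7 and 36.4 CPM in control pools. Zfp28 and Zfp583, neighbours on chromosome 7, fell together, by 1.41 and 1.40 on the log2 scale. For Zfp7, 20.6% of the 50-base windows of its transcript also occur in other transcripts, first of all those of the overlapping gene Gm49527. Of the 12 lowest 9 had a KRAB box, again against 155 of 266 genes in the set.

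**Figure D2:**
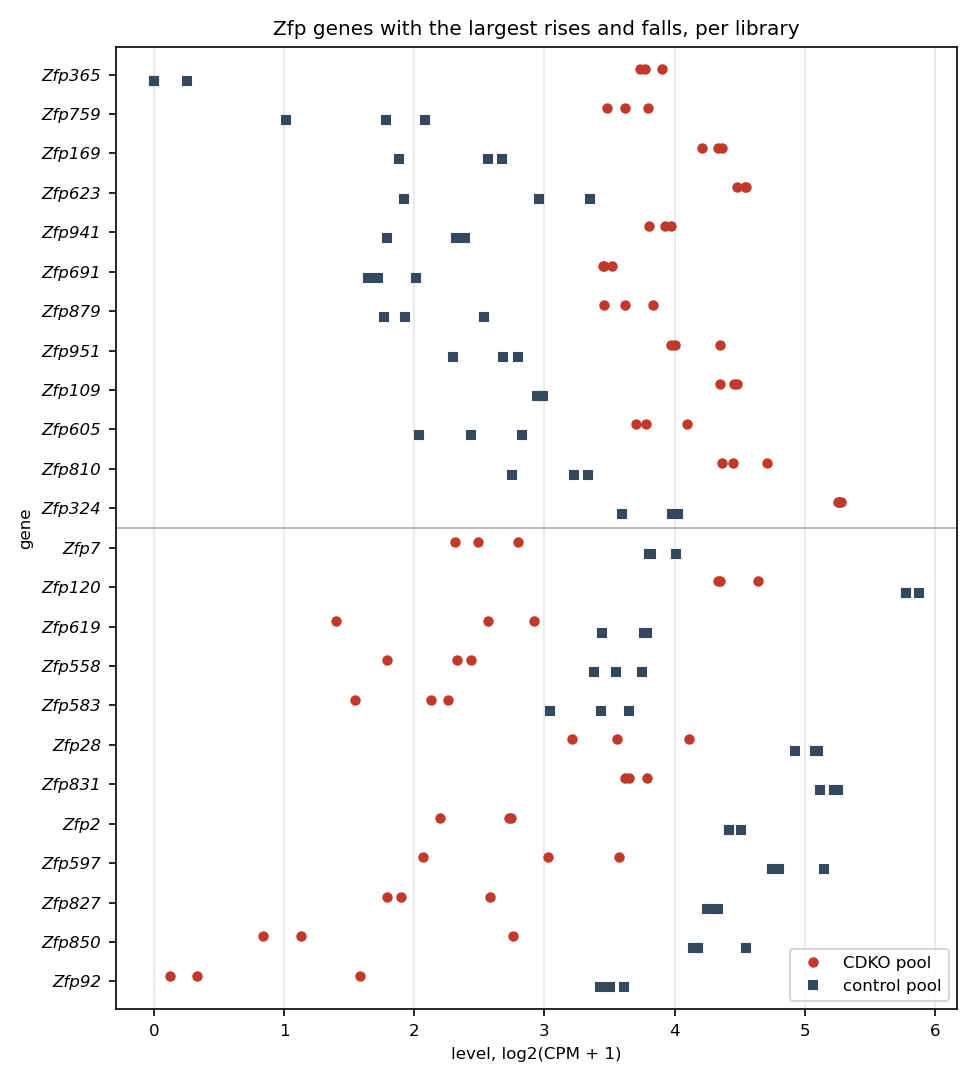
Level of the 12 highest genes (above the grey line) and the 12 lowest genes (below it) in each library, on the log2(CPM + 1) scale; circles are CDKO pools and squares are control pools. The groups do not overlap for any of the 24 genes, which was a condition for choosing them; Zfp365 has the widest gap, and Zfp92 and Zfp850 have 1 CDKO pool set apart toward the control pools.

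The groups by role given next hold 6 to 13 genes each, and their counts are read against the background, in which 31.1% of all 13732 genes tested were higher and 35.2% lower. Of 10 numbered Zfp genes with a role in RNA binding or RNA control, 6 were lower and none was higher. The place of Zfp64 and Zfp871 in this group is less certain than that of the others, and without them 4 of 8 were lower. Zfp622, which in yeast and human helps mature the large ribosomal subunit, had the largest fall, to 41.0, 48.4 and 45.4 CPM in CDKO pools, against 86.9, 86.4 and 79.3 CPM in control pools (log2 difference -0.89, SE 0.07, limma adjusted p = 1.76e-06). Zfp598, the ubiquitin ligase that marks stalled ribosomes, was at 35.2, 33.4 and 36.1 CPM in CDKO pools and 50.01, 51.8 and 49.4 CPM in control pools (log2 difference -0.52). In both genes the groups were far apart relative to their spread. Zfp593, a ribosome assembly factor, was lower by 0.33 on the log2 scale. Its call was lost without CDKO replicate 2 or 3 or control replicate 1 or 2 (limma adjusted p = 0.0537 to 0.0752) and with quantile normalization (limma adjusted p = 0.102). Zfp64 and Zfp871 were lower as well, by 0.23 and 0.48. The call of Zfp64 was lost without CDKO replicate 1 or any 1 of the control libraries (limma adjusted p = 0.0514 to 0.0796).

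Zfp36, which encodes tristetraprolin, the CCCH finger protein that speeds decay of mRNAs with AU-rich elements, changed little. It was at 35.6, 33.3 and 36.2 CPM in CDKO pools and 39.6, 41.4 and 38.9 CPM in control pools (log2 difference -0.19, limma adjusted p = 0.0431). This call was lost in 10 of the alternative fits, among them the exclusion of any 1 of 5 libraries (adjusted p over the alternatives 0.0192 to 0.129). Among 7 tested mRNAs known as its targets 3 were higher, 1 was lower and 3 did not pass. Zfp106, Zfp326, Zfp346 and Zfp830, the other RNA-binding members, had log2 differences of -0.01 to -0.20 and did not pass. Zfp346 passed without control replicate 1 (limma adjusted p = 0.0171), by DESeq2 and over genes of at least 5 CPM.

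Of 6 genes that act in mitosis and genome upkeep, Zfp365 was higher and Zfp207, Zfp451 and Zfp827 were lower, a share of 66.7% against the 66.2% of all genes tested that changed. Zfp451, a ligase for the small modifier SUMO, fell to 40.2, 43.7 and 45.3 CPM in CDKO pools, against 91.2, 90.5 and 98.2 CPM in control pools. That is 2.17-fold lower (log2 difference -1.10, SE 0.07, limma adjusted p = 2.91e-07), and the values within each group lay close together. Zfp668 and Zfp830 were at log2 differences of 0.09 and -0.10 and did not pass.

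Of 6 KRAB genes known to silence retroelements or imprinted genes, 4 were lower and 1 was higher, or 83.3% in all, against 66.2% of all genes tested. Zfp809, which recognises the primer binding site of murine leukemia viruses, was at 21.5, 21.9 and 21.3 CPM in CDKO pools and 30.7, 33.95 and 38.5 CPM in control pools (log2 difference -0.64, SE 0.10, limma adjusted p = 0.000131). All 3 CDKO values lay within 1 CPM of each other. Zfp568, which represses a placental transcript of Igf2, was at 25.9, 23.5 and 23.7 CPM in CDKO pools and 31.1, 34.1 and 38.1 CPM in control pools. Zfp961 was lower by 0.36 and Zfp708 by 0.58 on the log2 scale. The transcript of Zfp708 is shared in full with the readthrough gene Gm28557, so its counts are uncertain.

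Zfp445, a keeper of imprinted DNA methylation, was the 1 that rose, at 213, 187 and 186 CPM in CDKO pools and 170, 172 and 173 CPM in control pools (log2 difference 0.18, SE 0.06, limma adjusted p = 0.0127). Zfp932, which acts on endogenous retroviruses, did not pass and shares 55.5% of its 50-base windows, mostly with its close relative Gm15446. The summed level of the 6 genes was 302 to 336 CPM in CDKO pools and 327 to 335 CPM in control pools, ranges that overlap.

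Of 12 genes whose proteins work with chromatin cofactors, 3 were higher, 6 were lower and 3 did not pass. That is 75% changed, against 66.2% of all genes tested. Zfp687, Zfp592 and Zfp532 encode partners that bind the chromatin reader ZMYND8 together, and they did not move alike. Zfp687 was at 66.4, 68.2 and 67.5 CPM in CDKO pools and 32.3, 39.1 and 37.0 CPM in control pools (log2 difference 0.88, SE 0.08, limma adjusted p = 2.75e-06). Zfp592 was at 87.8, 101 and 105 CPM in CDKO pools and 129, 131 and 113 CPM in control pools (log2 difference -0.34, SE 0.08, limma adjusted p = 0.00212). Zfp532 was higher by 0.16, a call lost when any 1 library but CDKO replicate 1 was left out (limma adjusted p = 0.0542 to 0.128). Zfp687 overlaps Pi4kb on the other strand.

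Zfp277, a partner of Polycomb proteins, was at 64.8, 58.7 and 59.9 CPM in CDKO pools and 29.97, 32.9 and 37.9 CPM in control pools (log2 difference 0.85, limma adjusted p = 9.08e-06). Zfp609, which binds the cohesin loader Nipbl and the Integrator complex, fell to 8.64, 9.86 and 9.26 CPM in CDKO pools, against 18.0, 17.1 and 16.4 CPM in control pools, and its paralog Zfp608 fell by 0.52 on the log2 scale. Zfp644, a partner of the H3K9 methyltransferases G9a and GLP, was at 96.5, 81.5 and 87.8 CPM in CDKO pools and 119, 119 and 124 CPM in control pools. Zfp516, known for a role in brown fat, fell by 0.40, but did not pass with the adjustment for GC and length (limma adjusted p = 0.0927). Zfp217, Zfp410, which controls the NuRD subunit gene Chd4, and Zfp618 had log2 differences of 0.14, 0.01 and 0.12 and did not pass.

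Of 12 numbered Zfp genes with known roles in blood or immune cells 1 was higher, 3 were lower and 8 did not pass. The share that changed was 33.3%, against 66.2% of all genes tested, and no test was made of that difference. Zfp521, a regulator of HSC and of early B cells, was at 23.3, 34.9 and 35.0 CPM in CDKO pools and 29.7, 43.1 and 42.9 CPM in control pools (log2 difference -0.31, SE 0.17, limma adjusted p = 0.127). The first library of each group was the lowest, and the groups overlapped. Without control replicate 1 its log2 difference was -0.48 and it passed (adjusted p by limma 0.0258, and from 0.00544 to 0.494 in all alternatives run). Zfp91, a ubiquitin ligase of noncanonical NF-kB signalling, was higher, at 97.9, 89.3 and 88.7 CPM in CDKO pools and 66.3, 76.5 and 82.9 CPM in control pools (log2 difference 0.29, SE 0.08, limma adjusted p = 0.00672).

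Zfp35 and Zfp90 were lower, by 0.53 and 0.40 on the log2 scale, and Zfp36, described above, was the third. Zfp148, Zfp281, Zfp318, Zfp335, Zfp384, Zfp467 and Zfp667 did not pass, with log2 differences of -0.23 to 0.13. Among them Zfp335, needed for T cell maturation, was at 78.2, 85.3 and 81.1 CPM in CDKO pools and 93.5, 88.4 and 84.1 CPM in control pools. Zfp384, a partner in leukemia fusions in human, was at 95.0, 90.3 and 89.0 CPM in CDKO pools and 86.6, 86.0 and 92.2 CPM in control pools. Zfp281 had an adjusted p of 0.0657 in limma and 0.0234 by DESeq2, with a log2 difference of 0.13 in the first and 0.15 in the other. It also passed without CDKO replicate 2 (limma adjusted p = 0.0274).

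Of 13 other regulators with a described function 4 were higher, 7 were lower and 2 did not pass, so that 84.6% changed, against 66.2% of all genes tested. Zfp652, a partner of the corepressor Cbfa2t3, was at 22.0, 22.1 and 22.7 CPM in CDKO pools and 8.49, 12.3 and 11.8 CPM in control pools, 2.05-fold higher (limma adjusted p = 7.05e-05). Zfp407 was at 52.9, 61.8 and 50.4 CPM in CDKO pools and 28.7, 35.1 and 33.9 CPM in control pools (log2 difference 0.74). Zfp292, the largest fall of the group, was at 100.4, 108 and 93.6 CPM in CDKO pools and 160.3, 179 and 160.0 CPM in control pools (log2 difference -0.72, SE 0.06, limma adjusted p = 2.86e-06). In all 3 genes the groups lay apart by more than the spread within them.

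Zfp704 and its paralog Zfp395 both fell, by 0.54 and 0.66 on the log2 scale. Zfp746, also called PARIS, a KRAB repressor of the gene for PGC-1alpha, fell by 0.35. Zfp219, Zfp276 and Zfp821 were lower by 0.21, 0.28 and 0.32, but Zfp219 and Zfp276 did not pass with the adjustment for GC and length (limma adjusted p = 0.248 and 0.148; 0.000187 to 0.254 and 0.000736 to 0.148 over their alternatives). Without CDKO replicate 1 Zfp821 missed the threshold (limma adjusted p = 0.0512). Zfp296 and Zfp131 were higher by 0.38 and 0.22, and Zfp296 did not pass without CDKO replicate 1 or control replicate 2 (limma adjusted p = 0.0526 and 0.0736). Zfp143, which drives small nuclear RNA genes, did not pass (log2 difference -0.15, limma adjusted p = 0.0864).

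**Figure D3:**
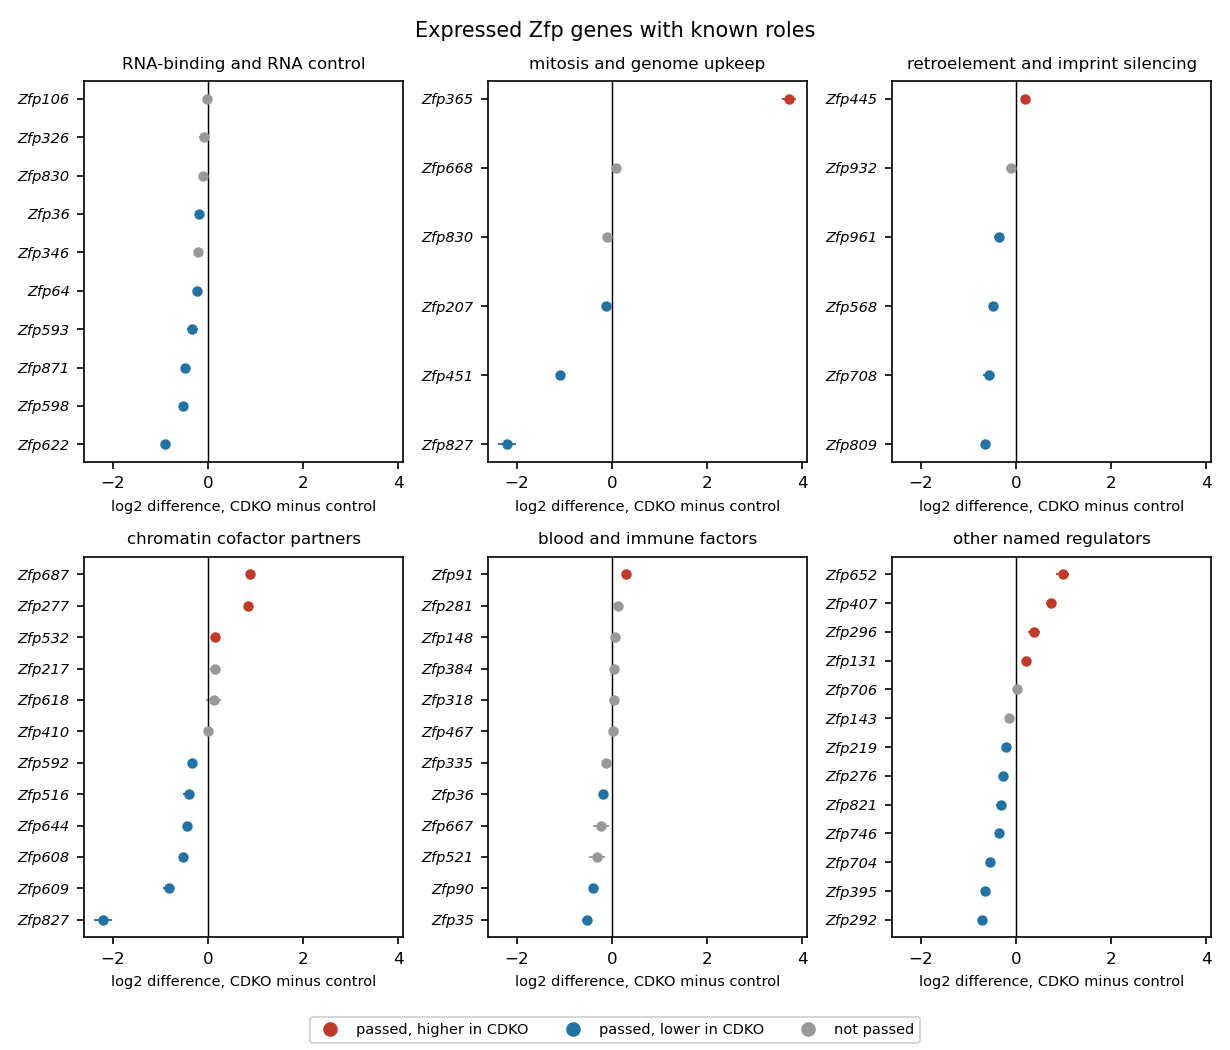
Log2 difference (CDKO minus control, horizontal axis) with its standard error for numbered Zfp genes grouped by known role, 1 panel per role; red passed as higher, blue passed as lower and grey did not pass. The RNA group holds no red point, the blood and immune group is mostly grey, and Zfp365 stands far to the right at 3.72.

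A KRAB A box was found in 155 of the 266 genes with a coding transcript, by protein sequence. Of these 50 were higher, 55 were lower and 50 did not pass, and with quantile normalization 59 were higher and 52 lower. The 50 and 55 are 32.3% and 35.5% of the KRAB genes, near the 31.1% and 35.2% of all genes tested. Of the 111 genes without a KRAB box 21 were higher, 47 were lower and 43 did not pass. The share that changed was 61.3%, against 66.2% of all genes tested, with 18.9% higher and 42.3% lower. That imbalance shrank to 30 higher and 41 lower with the adjustment for GC and length, under which the KRAB genes stood at 54 each way. The difference between these 2 splits was not tested. KRAB genes had a median level of 4.38 CPM per kb of exon, 12 fingers at the median and a transcript GC content of 42.9%. Genes without a KRAB box had 8.11 CPM per kb, 7 fingers and 51.7% GC.

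Summed levels of KRAB genes were 4295, 4280 and 4287 CPM in CDKO pools and 4255, 4508 and 4476 CPM in control pools, and these ranges overlap. For genes without a KRAB box the sums were 6310, 6431 and 6399 CPM in CDKO pools and 6788, 6947 and 6960 CPM in control pools, which do not overlap. A SCAN domain, which pairs zinc finger proteins with each other, was found in 11 genes, 7 of which also had a KRAB box. Of those 7 genes 1 was higher and 4 were lower, and of the 4 SCAN genes without KRAB 1 was higher. These shares, 71.4% and 25%, rest on few genes and stand against 66.2% of all genes tested. Across genes, Spearman's rho with the log2 difference was 0.01 for GC content, -0.07 for transcript length, -0.08 for mean level and -0.07 for finger number (267 genes, or 266 for fingers). These genes share libraries and are not independent.

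The machinery through which KRAB proteins silence DNA was measured as well. Of 22 tested genes for TRIM28 and its partners 9 were higher, 5 were lower and 8 did not pass, with a median log2 difference of 0.08. The 63.6% that changed were near the 66.2% of all genes tested. Trim28 itself, the common corepressor, was at 476, 480 and 455 CPM in CDKO pools and 406, 394 and 389 CPM in control pools (log2 difference 0.25, SE 0.04, limma adjusted p = 0.000226). Setdb1, the H3K9 methyltransferase that TRIM28 recruits, was at 101, 96.3 and 93.4 CPM in CDKO pools and 142, 135 and 138 CPM in control pools (log2 difference -0.51, SE 0.05, limma adjusted p = 6.62e-06). These 2 partners thus differed in opposite directions, each with groups that did not overlap. Cbx5, which encodes the heterochromatin protein HP1-alpha, was higher by 0.44 and Chd4, the NuRD remodeller, was lower by 0.31. A list of 5 tested genes covered the HUSH silencing complex and its partners. Mphosph8 was higher by 0.64, and 2 of the other 4, among them Setdb1 as given above, were lower.

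Close relatives could be told apart by sequence for most of the set. In 23 genes at least 20% of the 50-base windows of the transcript occur in another gene's transcripts, and the counts of such genes are uncertain. In 2 pairs of close relatives on chromosome 13 the copies went in opposite directions, as described next. For each pair the stretch below is 120 bases of coding sequence around the start of the KRAB A box, from GENCODE transcripts on mm10 (GRCm38), and capitals mark the bases at which the copies differ. It is shown as an example of how alike the copies are.
Zfp934: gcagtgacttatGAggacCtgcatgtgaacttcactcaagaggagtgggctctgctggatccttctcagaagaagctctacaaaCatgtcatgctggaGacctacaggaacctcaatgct
Zfp808: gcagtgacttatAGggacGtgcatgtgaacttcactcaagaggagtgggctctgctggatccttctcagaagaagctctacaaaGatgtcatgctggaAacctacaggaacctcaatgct
Zfp85: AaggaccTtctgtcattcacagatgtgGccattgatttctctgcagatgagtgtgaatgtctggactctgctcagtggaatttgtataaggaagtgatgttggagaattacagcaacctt
Zfp273: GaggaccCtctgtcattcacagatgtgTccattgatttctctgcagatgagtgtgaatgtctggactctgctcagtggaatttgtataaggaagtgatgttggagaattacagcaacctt

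Zfp934 (chr13:62479827-62571199, minus strand) and Zfp808 (chr13:62129886-62236144, plus strand) were 97.96% identical over 1419 aligned coding bases, with 5 differences in the stretch shown. The coding sequence of Zfp808 is longer, at 2259 bases, and its unaligned part is left out of that figure. Zfp934 was at 14.1, 12.7 and 13.4 CPM in CDKO pools and 6.60, 6.83 and 6.61 CPM in control pools (log2 difference 0.90, SE 0.12, limma adjusted p = 5.10e-05). Zfp808 was at 12.2, 12.9 and 13.2 CPM in CDKO pools and 23.3, 24.5 and 21.8 CPM in control pools (log2 difference -0.81, SE 0.10, limma adjusted p = 3.57e-05). Per kb of exon Zfp934 had 2.32 CPM in CDKO pools and 1.16 CPM in control pools, and Zfp808 had 2.71 CPM in CDKO pools and 4.91 CPM in control pools. The copies thus stood closer to each other in CDKO pools than in control pools. Exons of Zfp934 also overlap those of Zfp935 on the same strand. Zfp934 and Zfp808 share 41.6% and 40.4% of their 50-base windows, and how the authors' counting treated reads that match both is not given in the sources used here.

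Zfp85 (chr13:67747800-67755228, minus strand) and Zfp273 (chr13:67813740-67827002, plus strand) were 96.76% identical over 1419 aligned coding bases, with 3 differences in the stretch shown. The coding sequence of Zfp273 has 1503 bases, and its unaligned part is left out as well. Zfp85 was at 12.9, 9.26 and 11.2 CPM in CDKO pools and 5.91, 6.36 and 6.78 CPM in control pools (log2 difference 0.71, SE 0.15). Zfp273 was at 4.81, 3.88 and 4.18 CPM in CDKO pools and 7.11, 10.1 and 8.67 CPM in control pools (log2 difference -0.85, SE 0.16). In both genes the groups did not overlap. Exons of Zfp85 overlap Zfp85os on the other strand, so its counts may hold reads of that gene. Per kb of exon Zfp85 had 4.71 CPM in CDKO pools and 2.69 CPM in control pools, and Zfp273 had 1.13 CPM in CDKO pools and 2.27 CPM in control pools. These 4 genes were chosen after their values were seen. Other relatives varied. Zfp442 and Zfp937 were both lower, by 1.30 and 0.36 on the log2 scale, and Zfp65 and Zfp738 were both higher, by 0.61 and 0.40. Zfp758 and Zfp943 went in opposite directions, with log2 differences of -1.13 and 0.45. Zfp93 was higher while its relative Zfp108 did not pass.

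Genes of a cluster did not move as a block. Clusters were taken as runs of at least 4 members with gaps of at most 200 kb, and there were 16. The largest, on chromosome 13 (67038596 to 67827002), held 15 members, all with a KRAB box, of which 6 were higher, 4 were lower and 5 did not pass. Its differences ran from -1.20 for Zfp712 to 2.01 for Zfp759, whose starts are 83 kb apart. Zfp712 was at 8.76, 9.23 and 8.39 CPM in CDKO pools and 21.7, 21.3 and 21.7 CPM in control pools. The cluster of 13 members on chromosome 7 (29768552 to 30169750) had 5 higher, 5 lower and 3 that did not pass. Of all genes tested 31.1% were higher and 35.2% lower.

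The cluster of 10 members on chromosome 17 (21383748 to 22071168) had 3 higher, 1 lower and 6 that did not pass. Its 1 lower gene, Zfp53, was at 4.63, 6.03 and 6.29 CPM in CDKO pools and 13.2, 18.4 and 11.55 CPM in control pools. In a cluster of 5 members on chromosome 9 (20345136 to 20605409) none passed, with log2 differences of -0.13 to 0.21. The share that passed was 66.2% of all genes tested, and no test was made by cluster. Among 118 pairs of adjacent members within 200 kb, both passed in 48, in the same direction in 26 and in opposite directions in 22. That is 54.2% in the same direction, and 51.3% of 3588 such pairs among other genes. For pairs of KRAB genes it was 16 of 33, or 48.5%.

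**Figure D4:**
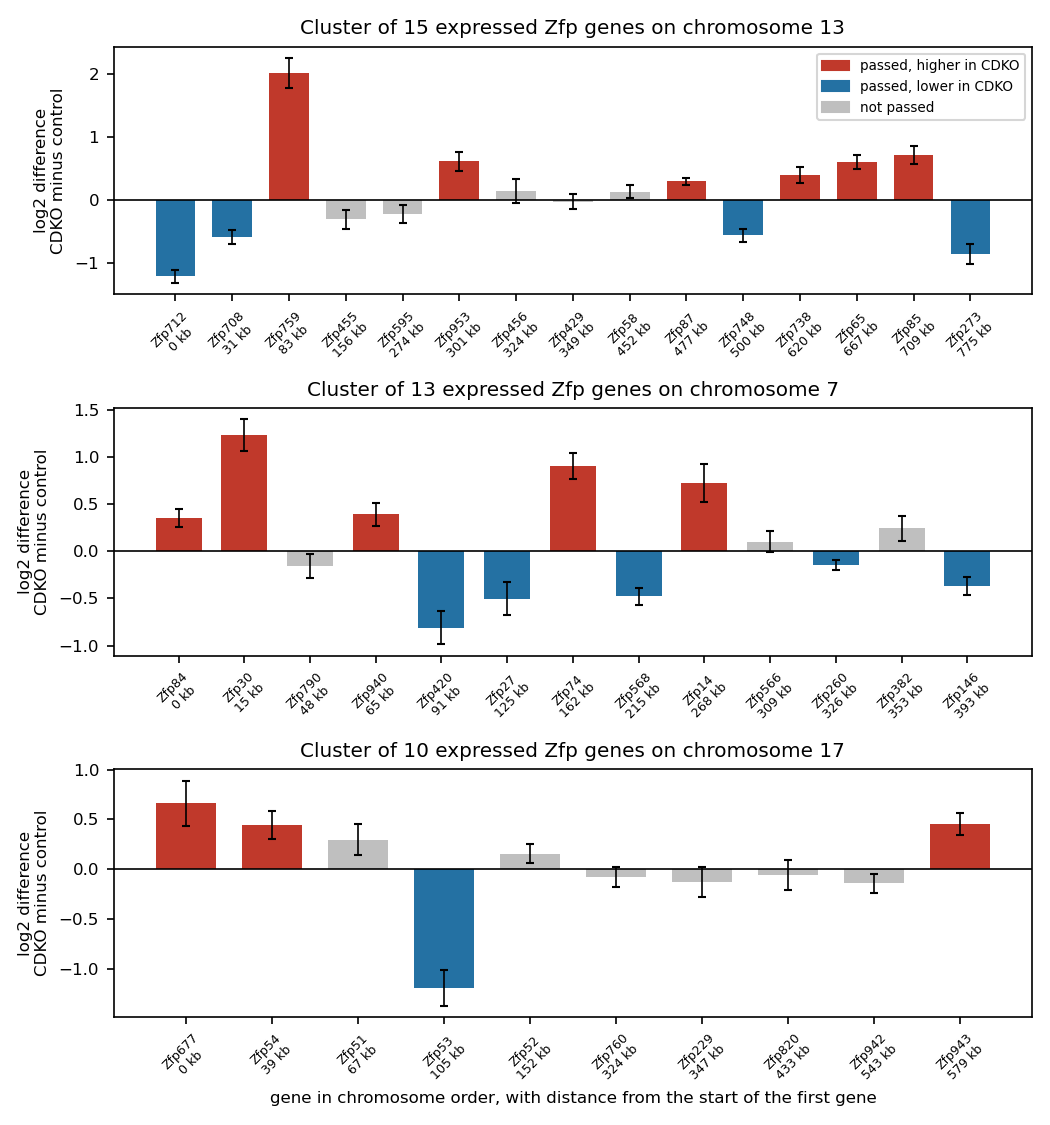
Log2 difference (CDKO minus control, bars, with standard error) of each member of the 3 clusters with the most numbered Zfp genes, in chromosome order, with the distance of each start from that of the first gene; red passed as higher, blue as lower and grey did not pass. Bars of opposite direction stand next to each other in all 3 clusters.

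By chromosome the members were spread over 20, with 72 on chromosome 7, 30 on chromosome 17 and 24 on chromosome 13. On chromosome 13, 11 were higher and 7 lower. On chromosome 2, none of 11 was higher and 8 were lower, among them Zfp120, Zfp831 and Zfp442. The shares that changed were 75% on chromosome 13 and 72.7% on chromosome 2, against 64.8% of the set and 66.2% of all genes tested. By direction 31.1% of all genes tested were higher and 35.2% lower. No test was made by chromosome, and chromosome 2 was chosen after its counts were seen.

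The 1.5-fold and 2-fold thresholds below were set on the limma difference of log2(CPM + 1), not on the ratio of mean CPM. The pseudocount makes that difference smaller than the ratio at low levels. Zfp652, 2.05-fold higher by the means, was not counted as 2-fold (log2 difference 0.99). Differences of at least 1.5-fold were found in 93 of the 267 genes, 34.8%, of which 43 were higher and 50 lower. This compares with 29.1% of all genes tested and 20.9% of the other genes with a mean of at least 5 CPM. The higher ones were 16.1% of the set, 12% of all genes tested and 8.61% of those other genes, and the lower ones were 18.7%, 17.1% and 12.3%. Differences of this size were more common at low levels in all genes, and the median mean level was 25.6 CPM in the set and 52.7 CPM in those other genes. Among genes of 5 to 10 CPM the share was 63.6% in the set of numbered Zfp genes and 48.6% in other genes. From 20 to 50 CPM it was 32.2% and 23.3%, from 50 to 100 CPM it was 21.2% and 15.5%, and over 100 CPM it was 5.26% and 6.78%. From 10 to 20 CPM, where 76 numbered Zfp genes lay, it was 42.1% and 39.3%. Among the 247 genes with at least 5 CPM in each group 74 differed by at least 1.5-fold, 34 higher and 40 lower. That is 29.96%, against 18.1% of the 10090 other genes at 5 CPM or more in each group. The part of level and of other properties in this difference was not tested. A difference of at least 2-fold was found in 21 of the 267 genes that were higher and 20 that were lower. Among the 247 genes it was 12 higher and 11 lower. Among the 10540 other genes with a mean of at least 5 CPM, 294 were higher and 469 lower by at least 2-fold. Among the 10090 other genes at 5 CPM or more in each group it was 184 and 284.

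**Figure D5:**
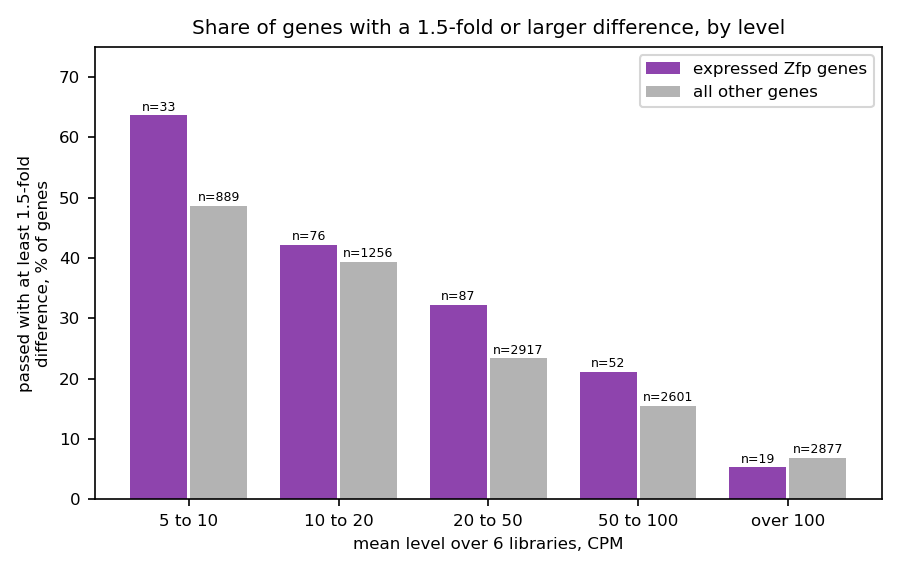
Percentage of genes that passed the limma test with at least a 1.5-fold difference (vertical axis) by mean level over 6 libraries in CPM, for numbered Zfp genes (purple) and all other genes (grey), with the number of genes above each bar. The share drops from left to right in both. It is 63.6% and 48.6% at 5 to 10 CPM and 5.26% and 6.78% over 100 CPM. The 1.5-fold threshold was set on the limma difference of log2(CPM + 1).

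Promoters of the set were searched for 2 motifs, on both strands. The window ran from 250 bases before to 50 after each start, from RefSeq on GRCm38.p6, and 221 of the 267 genes matched. The motif AAAGGTCA, the monomer site that NR4A receptors bind, was in none of the 221 and in 1.702% of 27025 genes. The motif GAAA, any 2 bases and GAAA again, the core of the response element through which interferon acts, was in 5 of the 221, or 2.262%, and in 3.993% of all genes. Of those 5 genes Zfp169 and Zfp941 were higher, Zfp420 and Zfp935 were lower and Zfp213 did not pass. A match is a match of letters and says nothing of binding. The windows of Zfp169 (chr13:48513387-48513686, minus strand) and Zfp941 (chr7:140822129-140822428, minus strand), among the largest rises, and of Zfp420 (chr7:29859762-29860061, plus strand), which fell, are given with the motif in capitals (read on either strand).
Zfp169: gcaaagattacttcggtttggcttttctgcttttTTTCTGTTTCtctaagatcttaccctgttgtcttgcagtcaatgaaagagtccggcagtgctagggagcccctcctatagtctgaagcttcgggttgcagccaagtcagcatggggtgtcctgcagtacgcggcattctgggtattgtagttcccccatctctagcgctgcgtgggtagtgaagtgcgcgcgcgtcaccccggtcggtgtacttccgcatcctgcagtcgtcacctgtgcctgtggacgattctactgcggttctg
Zfp941: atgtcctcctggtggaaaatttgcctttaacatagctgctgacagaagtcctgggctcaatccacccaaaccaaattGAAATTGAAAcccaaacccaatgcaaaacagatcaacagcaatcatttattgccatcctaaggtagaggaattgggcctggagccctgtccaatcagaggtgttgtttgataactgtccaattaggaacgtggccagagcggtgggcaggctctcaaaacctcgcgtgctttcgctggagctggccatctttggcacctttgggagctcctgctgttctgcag
Zfp420: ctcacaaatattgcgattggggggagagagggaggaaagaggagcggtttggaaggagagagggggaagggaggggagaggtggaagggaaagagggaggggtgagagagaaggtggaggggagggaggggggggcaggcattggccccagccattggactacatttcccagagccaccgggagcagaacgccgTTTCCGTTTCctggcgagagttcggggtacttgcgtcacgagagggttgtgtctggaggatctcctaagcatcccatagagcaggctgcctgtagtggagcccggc

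Zfp941 was at 14.2, 14.7 and 13.0 CPM in CDKO pools and 2.45, 4.25 and 3.99 CPM in control pools (log2 difference 1.74, SE 0.17, limma adjusted p = 6.04e-06). Zfp420, a KRAB gene with 19 fingers, was at 10.01, 6.92 and 5.77 CPM in CDKO pools and 13.2, 15.4 and 12.8 CPM in control pools (log2 difference -0.81, SE 0.17, limma adjusted p = 0.00157). Zfp935, a KRAB gene whose annotated protein has none of the counted fingers, fell by 0.69. Its transcript is shared in full with Gm49359, so its counts are uncertain. Zfp213 was at 30.7, 31.8 and 33.1 CPM in CDKO pools and 27.8, 30.7 and 28.5 CPM in control pools, and its groups overlapped.

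Overlapping annotation touched part of the set. Exons of 65 of the 267 genes overlap a gene on the other strand and those of 25 a gene on the same strand, and the library kit does not mark strand. Among the genes named above these include Zfp92, Zfp407, Zfp652, Zfp740 and Zfp961, whose counts may hold reads of the gene on the other strand. With these genes and those of shared sequence left out, 173 genes remained, of which 43 were higher and 69 lower. These are 24.9% and 39.9%, against 31.1% and 35.2% of all genes tested. By the authors' deposited table, 77 of the 267 genes were higher and 102 lower at an adjusted p under 0.05. All 71 and 102 genes called here had the same direction there, from the same libraries.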

How the data were processed

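RNA from sorted HSC was amplified with a SMARTer low-input kit and made into Nextera XT libraries, per the labels. TopHat2, HTSeq, DESeq2 and the build mm10 are named per the submitters' processing notes, with no version. The gene annotation and the treatment of reads that match several genes are not given in the sources used here. The authors deposited 1 table with CPM values per library, each scaled to the library's own total of 1000000. The deposited baseMean is a signal, the authors' mean of scaled counts, the deposited log2 fold changes set control over CDKO, so their sign was turned here, and the deposited stat is a score from the authors' DESeq2 fit. The adjusted p-values the authors deposited served for 1 comparison of calls, and their raw p-values were not used for it.

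All CPM values above 0 came out as whole reads in each library (100%, within 0.01 of a read). Genes were fitted by group alone on log2(CPM + 1) in limma 3.58.1 (R 4.3.3; eBayes, trend), over 13732 genes with a mean of at least 10 recovered reads, Benjamini-Hochberg adjusted over all of them, two-sided, threshold 0.05. Left out were 12 genes named by a date and 2 rows with a shared symbol. Errors are the SE of the limma coefficient, and folds are ratios of mean CPM, except in the counts at 1.5-fold and 2-fold. Those counts set the threshold on the limma log2 difference. On the recovered reads edgeR 4.0.16 called 8787 genes and DESeq2 1.42.0 called 9506, against 9096 by limma. The tests were checked on simulated data.

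Positions, exons and transcripts are from GENCODE M21 (mm10), matched by symbol for 265 genes and by an older symbol for 2. KRAB and SCAN domains were found with profiles built in HMMER 3.4 (E of at most 0.001), because sequence patterns alone found 121 KRAB genes. Shared sequence was counted in 50-base windows. The adjustment for GC and length was a loess fit per library over the 99.1% of tested genes with both. The genes named are the 12 highest and 12 lowest without overlap, the 8 with the highest mean CPM, the members of the role lists, and those next to the level rule. Any further gene was picked with its values in view. The members and lists were chosen with earlier results of these data known. Replicate numbers were not taken to pair libraries.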

Additional observations from a re-analysis of the deposited data

How the results depend on the processing

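The number of numbered Zfp genes that passed was 173, and 155 to 163 when 1 library was left out (155 without control replicate 2). Over TMM or quantile scaling, other pseudocounts, other filters on low values, the adjustment for GC and length, edgeR and DESeq2 it ran from 166 to 182, and no gene called in both fits turned direction. With at least a 1.5-fold difference required, 93 passed, 43 higher and 50 lower, and 3999 of all genes. Without genes of shared sequence or overlapping exons, a choice made after seeing the data, 112 of 173 passed, or 64.7%, of which 43 were higher. Deviations from the group means correlated at 0.0518, 0.0483 and -0.012 between CDKO and control libraries of the same replicate number. Between those of different numbers the values ran from -0.065 to 0.0263. With 3 libraries per group such values cannot decide whether the numbers pair libraries, and pairing was not assumed. The fit with replicate number as a block called 174, and 182 together with the adjustment for GC and length. Zfp521 passed in both of these fits.

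Of 83 named genes 61 passed, 52 of them in all 18 fits, and none of the 61 turned sign. Of all genes tested 66.2% passed in the main fit. The named genes include those with the largest rises and falls without overlap, chosen for these differences. For those genes passing was largely fixed by the choice, so the counts of named genes do not measure how stable the set is. Of the 22 that did not pass, 9 passed with the same sign in at least 1 other fit. Among them were Zfp422 with quantile normalization (limma adjusted p = 0.0484) and Zfp217 and Zfp467 with the adjustment for GC and length (limma adjusted p = 0.0458 and 0.0414). Zfp106 passed too with that adjustment, but with its sign turned. Among the 22 the sign turned in 7, and the cause was not tested. The log2 difference of Zfp106 was 0.1181 with the adjustment for GC and length (0.1181 with the block too), 0.000524 with TMM, 9.894e-05 by DESeq2, and -0.05382 to 0.02334 leaving out 1 library. That of Zfp335 was 0.04761 with the adjustment for GC and length, with and without the block. That of Zfp706 was -0.04622 with quantile normalization and -0.0202 to 0.04372 leaving out 1 library. Leaving out 1 library, Zfp318 ran from -0.01466 to 0.1163, Zfp410 from -0.03458 to 0.04864, Zfp467 from -0.004421 to 0.05192 and Zfp618 from -0.01159 to 0.2267. At these depths 0 reads allow a level of 0.0701 to 0.0913 CPM by library (3 counts, counting error only).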

Other observations

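Zinc finger families with other names were also measured. Of 39 tested BTB zinc finger genes, which pair a protein interaction domain with fingers, 12 were higher, 13 were lower and 14 did not pass (limma), a share of 64.1% against 66.2% of all genes tested. Of 20 tested genes named for a SCAN domain 5 were higher, 9 were lower and 6 did not pass, and their summed level was 652 to 675 CPM in CDKO pools and 790 to 811 CPM in control pools. Of 8 tested genes whose Zfp number carries a letter 2 were higher, 1 was lower and 5 did not pass.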
